A study of Mus musculus with 72 samples.

Results

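The 8 genes described here were grouped for how iron enters cells, is stored, leaves cells and is counted by the body. They are the hepcidin genes Hamp and Hamp2, the transferrin receptors Tfrc and Tfr2 and transferrin (Trf). The iron exporter ferroportin (Slc40a1) and the ferritin subunits Fth1 and Ftl1 complete the 8 genes. They were chosen by symbol, as the rows with these names in the 2 gene count tables. All 8 are among the 22823 genes of the liver table and 6 are among the 15759 genes of the table of the suprachiasmatic nucleus (SCN), the hypothalamic clock, which has no row for Hamp or Hamp2. The study fed C57BL/6 mice aged 8 to 12 weeks a diet lacking methionine and choline (MCD), which makes the liver fatty, or its isocaloric control diet. The mice lived alone in a cycle of 12 h light and 12 h dark for 10 days, then in constant darkness on day 11 of the diet, and were killed every 4 h from circadian time (CT) 0 to CT20. Liver came from the left lobe, and SCN tissue was cut from brain sections by laser. With 2 diets, 6 times and both tissues there are 24 groups of 3 libraries, 2 labelled male and 1 female, although the protocol text speaks of males only. All groups shared the strain, the single housing and the day of darkness.

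Hepcidin is a peptide hormone made by hepatocytes that binds ferroportin and causes its degradation, so that less iron leaves macrophages and gut cells. Its gene Hamp is switched on by BMP and SMAD signalling, which follows iron stores, and by IL-6 through STAT3 in inflammation. These data do not show whether the product of Hamp2 acts on iron. Inside cells, the iron regulatory proteins encoded by Aco1 and Ireb2 bind hairpins called iron-responsive elements: on Tfrc mRNA this protects the transcript, and on ferritin and ferroportin mRNA it blocks translation. An mRNA level therefore reports only a part of the control of the ferritins and of ferroportin.

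The hepcidin genes lie in tandem on the minus strand of mouse chromosome 7, 17686 bases apart (GRCm38, GENCODE M21), Hamp at chr7:30942368-30944032 and Hamp2 at chr7:30922372-30924681, each with 3 exons. The 250 bases before each start, from RefSeq on GRCm38.p6 (chr7:30944030-30944279 and chr7:30924182-30924431, minus strand), are shown side by side. Their part in the levels described below was not tested. RefSeq starts Hamp2 further downstream than GENCODE does, so the Hamp2 window lies within the GENCODE gene. Capitals mark the exact letters of 2 known hepcidin motifs, searched on both strands and not overlapping: the BMP-responsive element core GGCGCC and the STAT3 site TTCTTGGAA.
Hamp: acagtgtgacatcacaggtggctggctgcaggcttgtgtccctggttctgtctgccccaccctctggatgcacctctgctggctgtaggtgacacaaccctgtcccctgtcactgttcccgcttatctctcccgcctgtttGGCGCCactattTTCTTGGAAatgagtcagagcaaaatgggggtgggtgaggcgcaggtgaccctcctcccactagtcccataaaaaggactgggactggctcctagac
Hamp2: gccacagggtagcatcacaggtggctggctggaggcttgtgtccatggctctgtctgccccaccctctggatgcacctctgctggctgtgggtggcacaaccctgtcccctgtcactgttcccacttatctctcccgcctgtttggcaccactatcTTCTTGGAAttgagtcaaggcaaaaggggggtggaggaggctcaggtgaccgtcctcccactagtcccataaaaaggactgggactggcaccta
The windows are 91.9% identical over 247 aligned bases. Hamp holds GGCGCC 109 to 104 bases before its start and TTCTTGGAA 97 to 89 bases before it. Hamp2 holds TTCTTGGAA 94 to 86 bases before its start, and at the aligned place of the other motif it carries the change G4A, counted from 1 at the 5′ end of GGCGCC. Of 32851 such windows in the RefSeq table, 9.59% hold GGCGCC and 0.365% hold TTCTTGGAA. A match is a description of letters and says nothing of binding here.

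Iron-responsive elements were found by their loop and paired stem (a C, any 5 bases, CAGTG, any base but G, then 5 bases that pair with the first 5) in the reference transcripts of 4 of the 8 genes, against 222 of 21877 protein-coding genes (1.01%). They are shown as 30 bases with the 6-base loop in capitals, on GRCm38, because they place Tfrc, the ferritins and ferroportin under a shared mechanism that acts after transcription. The 3′ UTR of Tfrc held 4, and the 5′ UTR of Slc40a1, Fth1 and Ftl1 held 1 each.
Tfrc element 1 (chr16:32631219-32631248, plus strand): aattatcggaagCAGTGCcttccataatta
Tfrc element 2 (chr16:32631598-32631627, plus strand): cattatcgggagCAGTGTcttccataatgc
Tfrc element 3 (chr16:32631663-32631692, plus strand): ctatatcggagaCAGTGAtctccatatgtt
Tfrc element 4 (chr16:32631710-32631739, plus strand): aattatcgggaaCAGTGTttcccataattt
Slc40a1 (chr1:45925464-45925493, minus strand): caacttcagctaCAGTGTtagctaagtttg
Fth1 (chr19:9982732-9982761, plus strand): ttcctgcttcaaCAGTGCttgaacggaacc
Ftl1 (chr7:45459778-45459807, minus strand): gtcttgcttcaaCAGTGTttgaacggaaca

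Counts in the tables totalled 52.6 to 86.7 M per liver library and 23.3 to 79.8 M per SCN library. One liver library, control CT08 a (its column name occurs in both tables on 2 columns, here a and b), was the lowest control for Tfr2. It was also the highest control for Ftl1 and Slc40a1. It is left out where stated, and no measure apart from gene levels is given for that choice. Liver libraries also fell into 2 kinds by the mitochondrial transcript mt-Nd6, 15 at 379 to 1038 CPM (counts of a gene per M counts of its library) and 21 at 32.8 to 133 CPM, with 10 of the 18 controls but 5 of the 18 MCD libraries in the high kind, so diet effects are also given within each kind. Levels are CPM scaled by TMM, a factor that sets the bulk of genes equal between libraries. Its mean was 0.917 in liver controls and 1.10 in liver MCD libraries, and scaling by library totals instead raises the median liver gene by 0.27 log2 on MCD. The hepatocyte markers Alb, Apoa1, Apob, Ttr, Serpina1a, Cyp3a11, Cps1 and Tat were all present in liver, and all 8 SCN markers, among them Avp, Vip and Nms, in SCN.

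In liver on the control diet, compared per kilobase of the reference transcript, Trf stood highest at 4628 ± 386 CPM per kb (SD, n = 18). It encodes the iron carrier of plasma. Ftl1 (1678 ± 244), Hamp (1476 ± 521) and Fth1 (1218 ± 140.2) followed and each overlapped the next over libraries. Hamp2 spanned 44.4 to 2910 CPM per kb, overlapping its neighbours, Tfr2 stood at 128 ± 13.5, Slc40a1 at 50.5 ± 11.3 and Tfrc at 5.32 ± 2.48, the last 3 without overlap. The SCN order on the control diet was Fth1 (1462 ± 193 CPM per kb), Ftl1 (290.2 ± 36.2), Trf (16.7 ± 2.76), Tfrc (12.5 ± 2.13), Slc40a1 (1.74 ± 0.456) and Tfr2 (1.37 ± 0.400), where Trf overlapped Tfrc and Slc40a1 overlapped Tfr2. The order was the same on MCD in both tissues, where in liver the ranges of Tfr2 (74.3 ± 7.82) and Slc40a1 (67.0 ± 8.61) overlapped. Ferritin composition differed in level between the tissues: Ftl1 stood at 1.38 ± 0.157 times Fth1 in liver controls and at 0.200 ± 0.0179 times Fth1 in SCN controls, per kb, a description across separately normalised tables.

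**Figure D1:**
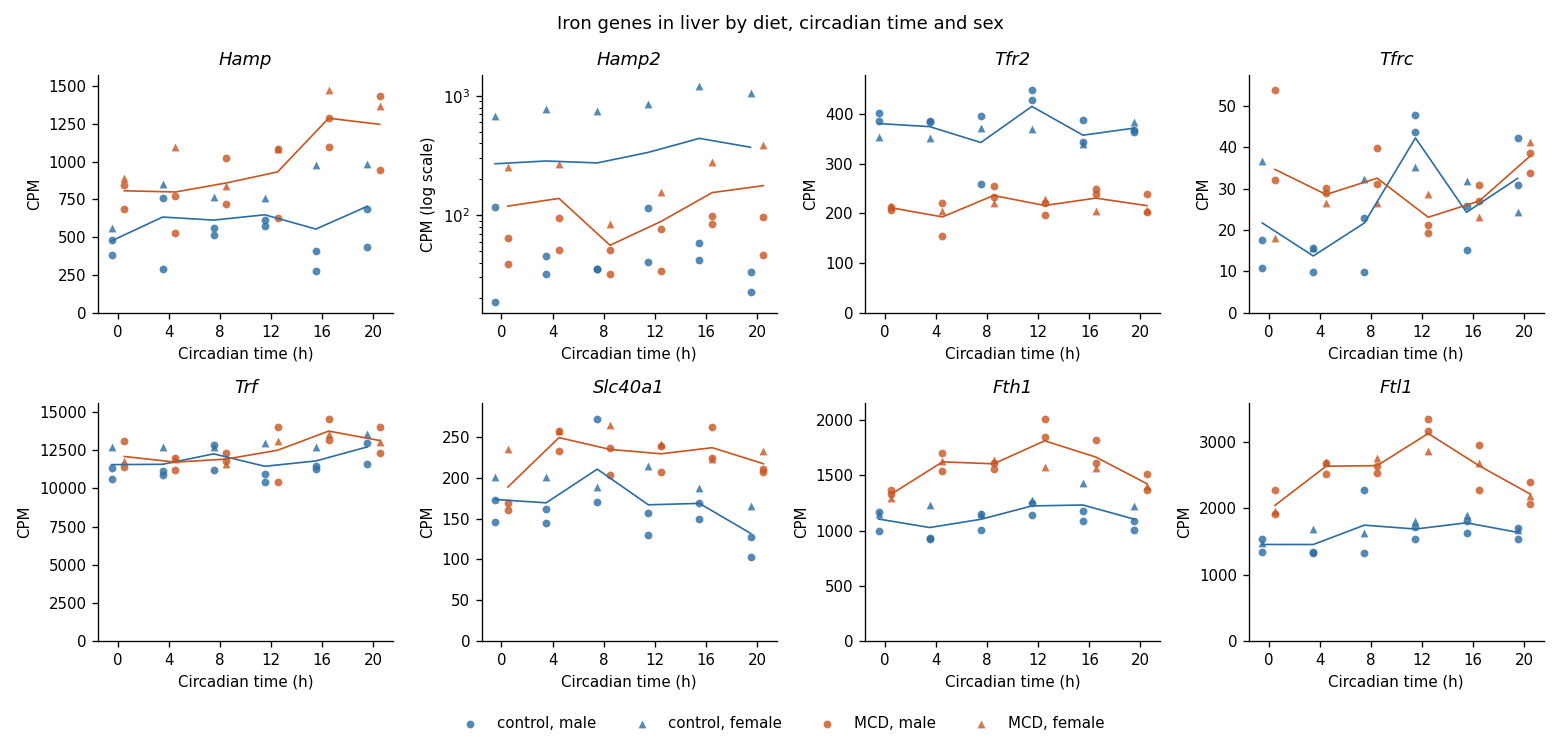
Liver levels in CPM (y axis, logarithmic for Hamp2) against circadian time in hours for the 8 genes. Points are single libraries, circles male and triangles female, and lines join group means of 3 libraries; Tfr2 on MCD lies below every control, and Hamp2 is highest in control females.

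The diet comparison asks how the iron genes differ between livers on MCD and on control diet, averaged over the 6 times. Hamp, Fth1, Ftl1 and Slc40a1 rose on MCD and Tfr2 fell, with edgeR's quasi-likelihood test and Benjamini-Hochberg adjustment over all genes. That is 5 of 8 genes, where 46.6% of the 20249 genes tested were called, with 25.3% higher and 21.2% lower, and the count of 4 higher and 1 lower is to be read against these shares. Genes called higher numbered 5130 and lower 4296, but 10633 and 1540 under library totals. The median log2 change was 0.37 over the 8 genes and 0.02 over all genes tested.

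Tfr2, the receptor with which hepatocytes sense iron-loaded transferrin, was the 1 gene of the 8 whose diets did not overlap. Control libraries ran from 259.8 over a median of 378 to 448 CPM, and MCD libraries from 155 over 218 to 255 CPM. All 18 MCD libraries lay below all 18 controls, the lowest control being control CT08 a, and 0.193% of the genes of the liver table showed such a gap. The change was -0.78 ± 0.05 log2 (SE, adjusted p = 1.91e-11), and -0.92 and -0.75 within the high and low mt-Nd6 kinds.

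The ferritin subunits rose together. Ftl1, the light chain that helps iron form its mineral core, ran from 1327 over 1630.1 to 2268 CPM on control and from 1906 over 2579 to 3345 CPM on MCD. The top control was control CT08 a, and without it all 18 MCD libraries lay above the other 17 controls, as they did for 0.613% of genes, against 0.0789% with all controls in. The change was 0.64 ± 0.06 log2 (adjusted p = 2.44e-09) and lay at 0.71 and 0.56 within the mt-Nd6 kinds. Fth1, the heavy chain that oxidises iron, ran from 919.9 over 1148 to 1433 CPM on control and from 1290.3 over 1569 to 2013 CPM on MCD. A single control library, the CT16 female, stood above the lowest MCD library. Fth1 changed by 0.48 ± 0.05 log2 (adjusted p = 1.48e-08), with 0.51 and 0.41 within the kinds. At each of the 6 times all 3 MCD libraries exceeded all 3 controls for both chains. How many of all genes did so was not counted. The ratio of Ftl1 to Fth1 per kb was 1.38 ± 0.157 on control and 1.55 ± 0.112 on MCD (SD, n = 18 each), with overlapping ranges. Light-chain reads may be shared with near-identical copies: the rows Ftl1-ps1 and Ftl2-ps averaged 224 ± 38.5 and 78.2 ± 13 CPM on control and 355 ± 61.6 and 124 ± 24.9 on MCD, and rose with Ftl1 by like folds of 1.59 and 1.58 against 1.57.

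Hamp, the hormone gene, ran from 275 over 568 to 984 CPM on control and from 530.0 over 984 to 1472 CPM on MCD. The groups overlapped, with 9 MCD libraries above every control and none below, and the MCD mean was higher at all 6 times. The change was 0.73 ± 0.12 log2 (adjusted p = 2.78e-05). Within the mt-Nd6 kinds it was 0.62 (high, adjusted p = 0.0581) and 0.66 (low, adjusted p = 0.00738). Slc40a1, the only known cellular iron exporter and hepcidin's target, ran from 103 over 167 to 272 CPM on control and from 161 over 233 to 264 CPM on MCD. The highest value of all was control CT08 a, and without it 12 of the 18 MCD libraries lay above the other 17 controls. The change was 0.42 ± 0.07 log2 (adjusted p = 7.81e-06) and 0.46 without that library, with 0.49 and 0.35 within the kinds.

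Hamp2, Tfrc and Trf did not pass the test over both sexes. Tfrc, the receptor that takes up transferrin iron in most cells, ran from 9.82 over 25.1 to 47.8 CPM on control and from 18.1 over 29.6 to 53.7 on MCD, a difference of 0.31 ± 0.16 log2 (adjusted p = 0.113, 2 SE from -0.01 to 0.63). Trf ran from 10395 over 11534 to 13540.1 CPM on control and from 10395 over 12337 to 14579 on MCD, a difference of 0.08 ± 0.05 (adjusted p = 0.189). Both passed under scaling by library totals, Tfrc at 0.56 (adjusted p = 0.00421) and Trf at 0.33 (adjusted p = 2.72e-05), so the call of each changes with the scaling. Tfrc also passed without replicate 3 (0.53, adjusted p = 0.0118), without the control CT00 female (adjusted p = 0.0283) and without the MCD CT00 female (adjusted p = 0.0441). Within the high and low mt-Nd6 kinds Tfrc differed by 0.98 (adjusted p = 0.0891) and 0.12 (adjusted p = 0.757), and Trf by 0.09 and 0.06 without passing. The Tfrc mean spans times of opposite direction, from 1.06 at CT04 to -0.89 at CT12, the only time with a lower value on MCD, and no time passed. Hamp2 differed by -0.38 ± 0.33 (adjusted p = 0.363), a mean over a fall in females and a change in males that did not pass, as described below. Within the high and low mt-Nd6 kinds it was 0.46 (adjusted p = 0.536) and -0.91 (adjusted p = 0.0527).

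Marker genes moved with diet as well. Of the 8 hepatocyte genes 4 fell (Apoa1, Ttr, Serpina1a and Cps1) and Cyp3a11 rose, with sums of 87022 to 128263 CPM on control and 64508 to 129481 on MCD. Of 6 erythroid genes measured in liver, 4 fell, all of them globin genes, and the summed level of the 6 ran from 130.0 to 453 CPM on control and from 93.7 to 273 on MCD. Of 8 macrophage genes 7 rose, with sums of 282 to 683 CPM on control and 374 to 809.5 on MCD, and of 6 sinusoidal endothelial genes 2 rose. Macrophages are rich in Slc40a1 and ferritin, and red cell precursors in Tfrc. The part of these cells in the results was not tested, and in bulk tissue fewer cells of a type and less RNA per cell cannot be told apart.

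**Figure D2:**
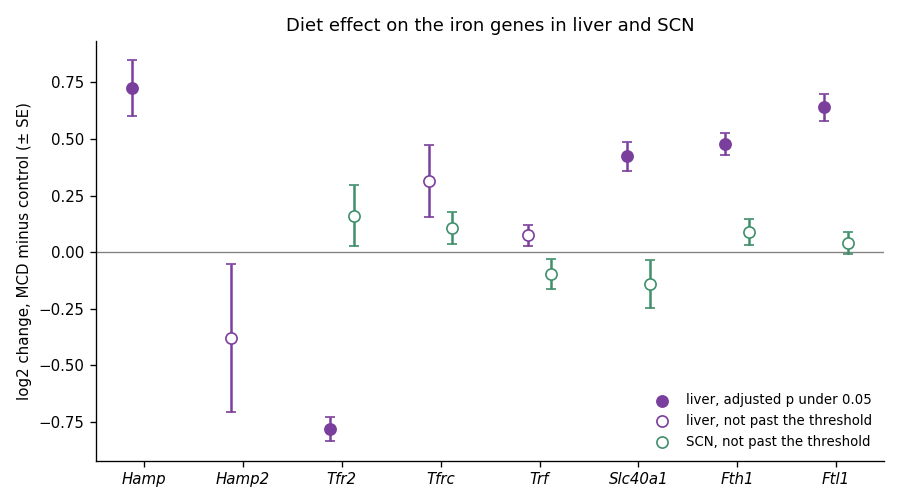
Log2 change, MCD minus control, averaged over 6 times (y axis, bars ± SE) for each gene in liver and SCN; filled points passed an adjusted p of 0.05. Liver values run from -0.78 for Tfr2 to 0.73 for Hamp, and none of the 6 SCN values passed.

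Time by time, with 3 libraries a group, 22 of the 48 liver gene-by-time tests passed. Of all genes tested, 1.30% passed at CT08 and 11.3% (CT20), 12.5% (CT16), 12.6% (CT00), 15.2% (CT12) and 18.2% (CT04) at the other times. Tfr2 and Ftl1 passed at all 6 times. Tfr2 fell by between 0.54 (CT08) and 0.95 (CT04) log2, and Ftl1 rose by between 0.43 (CT20) and 0.89 (CT12). These calls were not all firm: without single libraries the Ftl1 call at CT20 was lost in 31 of 36 fits, those of Ftl1 and Tfr2 at CT08 in 5 each, and those of Ftl1 at CT00 and CT16 in 5 and 2. Fth1 passed at 5 times, all but CT00 (0.27, adjusted p = 0.144). Slc40a1 passed at CT04, CT12, CT16 and CT20, with its largest change, 0.73 ± 0.16, at CT20. Its call was lost in 19 of 36 such fits at CT12, 10 at CT16 and 2 at CT04, and the Fth1 call in 12 at CT20, 4 at CT08 and 3 at CT16.

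Hamp passed at CT16 only, and gained a call at CT20 in 3 of the 36 fits that each left out 1 library (adjusted p from 0.038 to 0.047). At CT16 the controls stood at 275 and 412 CPM in males and 976 in the female, and the MCD livers at 1099 and 1292 in males and 1472 in the female. All MCD livers exceeded all controls, the female control coming closest, and the share of all genes doing so was not counted. The change was 1.32 ± 0.31 log2 (adjusted p = 0.00576), and 1.04 (adjusted p = 0.0552) without the lowest control, replicate 1. At the other times Hamp differed by 0.33 to 0.88 without passing. Tfrc passed at no time. At CT04 it differed by 1.06 (adjusted p = 0.062) and gained a call in 5 of the 36 fits (adjusted p from 0.0396 to 0.0488). At CT12 it differed by -0.89 (adjusted p = 0.126). With replicate 1 or replicate 2 left out throughout, 2 libraries remain a group, except in control CT08, whose libraries a and b carry no number and stay in. Of the 48 tests 3 or 4 then passed in place of 22. At CT08, control CT08 a moved values: without it Ftl1 changed by 0.84 in place of 0.60 and Tfr2 by -0.72 in place of -0.54, while Slc40a1 differed by 0.42 in place of 0.14 without passing.

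**Figure D3:**
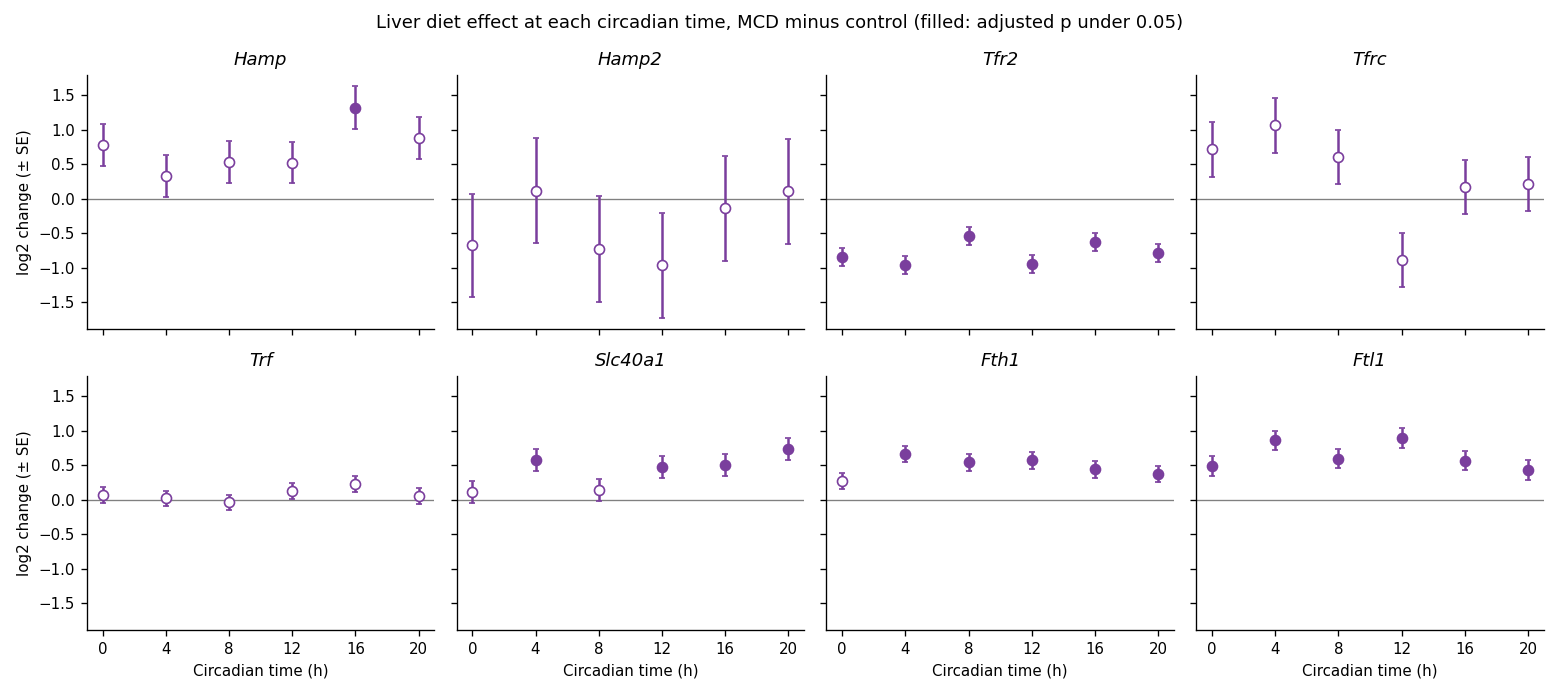
Liver log2 change, MCD minus control (y axis, bars ± SE), at each circadian time in hours; filled points passed an adjusted p of 0.05. Tfr2 lies between -0.95 and -0.54 throughout, and Hamp is highest at CT16 with 1.32.

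Rhythm was tested as a 24 h wave over the 6 times in each diet. On control diet Tfrc and Slc40a1 passed (2 of 8, against 17.8% of genes), and on MCD Fth1 and Ftl1 (2 of 8, against 28.2%). Hamp on MCD had a wave of 0.75 ± 0.26 log2 with its peak at CT 17.1 that did not pass (unadjusted p = 0.0201, adjusted p = 0.0652), but did with DESeq2 (adjusted p = 0.0368), without replicate 1 (adjusted p = 0.0227) and in 4 of the 36 fits that each left out 1 library. Control Tfrc stood lowest at CT04, with 15.7 and 9.82 CPM in males and 15.7 in the female, and highest at CT12, with 43.6 and 47.8 in males and 35.2 in the female. The fitted wave spanned 1.16 ± 0.34 log2 from trough to peak, peaking at CT 15.2 (edgeR adjusted p = 0.0483). On MCD the same gene read 29, 30.2 and 26.5 CPM at CT04 and 19.4, 21.2 and 28.6 at CT12, the ranges of the 2 times overlapping, and no wave passed (adjusted p = 0.46).

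The Slc40a1 wave on control (0.42 ± 0.13 log2, peak CT 7.62, adjusted p = 0.0466) rested on control CT08 a, at 272 CPM beside 170.5 and 188 in its group, and the adjusted p was 0.25 without it. Without that library Tfrc did not pass either (adjusted p = 0.0562), while Ftl1 did (adjusted p = 0.0415). Both control calls lay close to the threshold and were lost without any of 26 (Slc40a1) or 27 (Tfrc) of the 36 single libraries. Neither passed under library totals. On MCD, Ftl1 rose from 1906, 2268 and 1949 CPM at CT00 to 3162, 3345 and 2856 at CT12, a wave of 0.52 ± 0.11 log2 with its peak at CT 10.9 (adjusted p = 0.00489). Fth1 followed with 0.37 ± 0.09 log2 and a peak at CT 11.2 (adjusted p = 0.0136). Neither call was lost when any one library was left out. Ftl1 did not pass without replicate 1, 2 or 3 (adjusted p = 0.219, 0.0661 and 0.0986), nor did Fth1 without replicate 1 or 2 (adjusted p = 0.268 and 0.158).

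A difference of rhythm between diets passed for none of the 8 genes, against 4.87% of all genes, with edgeR. The closest to passing was Tfrc (unadjusted p = 0.0143, adjusted p = 0.128), the 1 gene of the 8 with an unadjusted p under 0.05. DESeq2 called Tfrc (adjusted p = 0.0391) and limma-voom called none. Without control CT08 a, Ftl1 passed (span of the difference 0.52 in place of 0.34, adjusted p = 0.0465), and Tfrc did without replicate 3 (adjusted p = 0.048) and without the control CT00 female (adjusted p = 0.0402). With all libraries in and edgeR, the rhythms named for one diet were thus not shown to differ from those on the other.

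Sex was tested from the 6 female and 12 male livers of each diet. Hamp2, Hamp and Slc40a1 were higher in females (3 of 8, against 9.44% of genes called and 5.17% higher in females), averaged over diets. On control alone these 3 and Fth1 passed (4 of 8, against 9.87% of genes), Fth1 at 0.21 ± 0.06 (adjusted p = 0.0245), and on MCD alone Hamp2 did (1 of 8, against 2.23%), with Hamp at 0.30 (adjusted p = 0.544) and Slc40a1 at 0.17 (adjusted p = 0.521). The control calls of Fth1 and Slc40a1 were lost without replicate 1 or 2, that of Hamp without replicate 1 and that of Slc40a1 also with library totals. Hamp2 differed by 3.20 ± 0.34 log2 (adjusted p = 3.87e-07), Hamp by 0.52 ± 0.13 (adjusted p = 0.00963) and Slc40a1 by 0.24 ± 0.07 (adjusted p = 0.0238). The Slc40a1 call was lost without any one of 5 female libraries, the controls of CT00, CT04, CT12 and CT20 and the MCD library of CT00 (adjusted p up to 0.0723), without replicate 1 or 2, and under library totals (adjusted p = 0.0559).

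The diet effect on Hamp2 differed between the sexes, the 1 gene of the 8 to pass that test (1.77% of genes did). Control females ran from 674 over 816 to 1222 CPM and control males from 18.6 over 37.8 to 117 CPM. All 6 control females stood above all 12 control males, by 17.9 times on the means. MCD females ran from 84.6 over 261 to 388 CPM and MCD males from 32 over 58 to 98.9 CPM. All 6 MCD females lay below all 6 control females, while the male ranges of the diets overlapped, and 5 of 6 MCD females stood above the highest MCD male. The share of all genes with such gaps between the diets or the sexes was not counted. The diet change was -2.05 ± 0.38 log2 in females (adjusted p = 2.79e-04) and 0.41 ± 0.26 in males (adjusted p = 0.227), and the difference of -2.46 ± 0.46 had an adjusted p of 0.00357. The male change passed with library totals (0.68, adjusted p = 0.0306) and without replicate 1 (0.92, adjusted p = 0.0025), and was 0.017 without replicate 2. The values within a sex were added after the data were seen. Without replicate 2, which leaves 1 male a group but both males in control CT08, the difference was -2.08 (adjusted p = 0.19).

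Hamp moved otherwise. Control females ran from 563 over 810.2 to 984 CPM against 275 over 499 to 758 in control males, and MCD females from 837 over 1088 to 1472 against 530.0 over 894 to 1432 in MCD males. The highest levels were in MCD livers of both sexes. The diet change was 0.87 ± 0.15 log2 in males (adjusted p = 4.40e-05) and 0.44 ± 0.21 in females (adjusted p = 0.127), but the difference between the sexes, -0.43 ± 0.25, did not pass (adjusted p = 0.532). The female change passed with library totals (0.68, adjusted p = 0.0125). In control females Hamp2 made up 51.4 ± 3% of the summed level of Hamp and Hamp2 per kb (SD, n = 6), and 16.6 ± 5.23% in MCD females. In males the share was 9.35 ± 6.24% on control and 6.55 ± 2.48% on MCD (n = 12 each). The summed level of both genes was 4112 ± 851 CPM per kb in control females and 3310 ± 812 in MCD females, against 1335 ± 365 and 2400 ± 700.4 in males. This sum of transcripts does not measure the hormone. The reference transcripts are 94.6% identical over 410 aligned bases, so the split of reads between the genes is uncertain, and both overlap Gm44662 on the other strand.

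In males alone 7 of the 8 genes passed (39.6% of genes did), Tfrc at 0.53 ± 0.19 (adjusted p = 0.0257) and Trf at 0.14 ± 0.05 (adjusted p = 0.0413) besides Hamp, Slc40a1, Fth1, Ftl1 and Tfr2. The calls of Tfrc and Trf in males were lost without replicate 1 (adjusted p = 0.0638 and 0.107) or replicate 2 (adjusted p = 0.531 and 0.81). That of Trf was lost with a term for library kind (adjusted p = 0.0505). That of Tfrc was lost with the replicate block (0.43), which also leaves out control CT08 a and b. In females alone 5 passed (24.8% of genes): Tfr2, Ftl1, Fth1, Slc40a1 and Hamp2. The Slc40a1 call in females was lost with a term for library kind (adjusted p = 0.0561) and without replicate 1 (adjusted p = 0.112) or replicate 2 (adjusted p = 0.0902). Neither Tfrc nor Trf differed in its diet effect between the sexes at the threshold (adjusted p = 0.432 and 0.42). Fth1 came closer, with 0.57 ± 0.05 in males, 0.28 ± 0.07 in females and an adjusted p of 0.0986 for the difference. That difference passed with DESeq2 (adjusted p = 0.00801), with a term for library kind (adjusted p = 0.0232) and without control CT08 a (adjusted p = 0.0485).

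**Figure D4:**
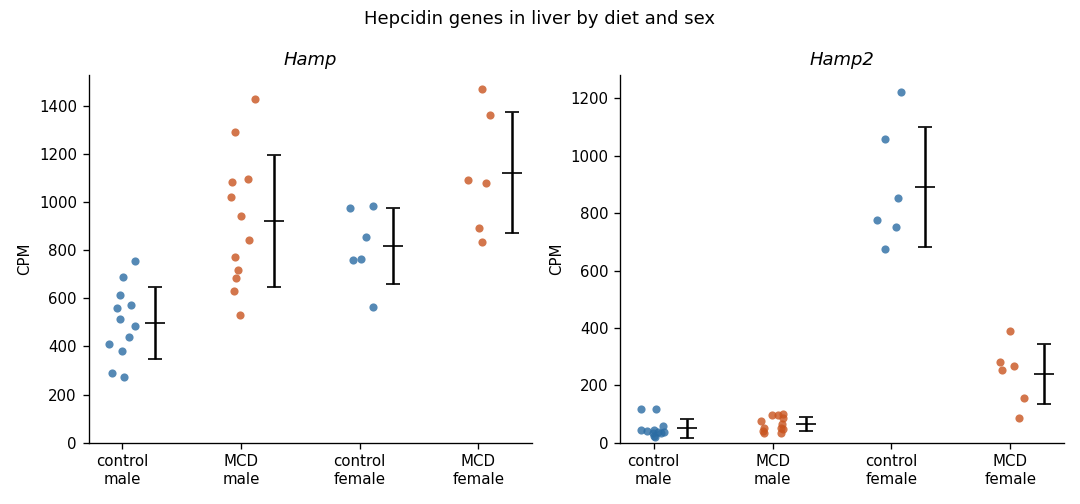
Liver Hamp and Hamp2 in CPM (y axis) by diet and sex, 12 male and 6 female libraries a diet. Points are libraries, and bars give the mean ± SD; Hamp2 averages 890 in control females and 238 in MCD females.

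In SCN none of the 6 genes passed the diet test with edgeR, where 0.0635% of 15759 genes did. None had an unadjusted p under 0.05, and DESeq2 and limma-voom called none either. Tfrc ran from 41.3 over 60.2 to 79.6 CPM on control and from 49.5 over 66.1 to 85.7 on MCD, and differed by 0.11 ± 0.07 log2. Fth1 ran from 1067 over 1378 to 1614 CPM and from 1125 over 1359 to 2007, and differed by 0.09 ± 0.06. Ftl1 ran from 219.7 over 275 to 369 CPM and from 215 over 276 to 433, and differed by 0.04 ± 0.05. The diets overlapped for all 3 genes, with 4 MCD libraries above the highest control for Fth1 and 1 each for Tfrc and Ftl1.

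Trf, made in brain by oligodendrocytes, ran from 30.1 over 42.1 to 56.3 CPM on control and from 29 over 39.6 to 52.2 on MCD, a difference of -0.10 ± 0.07. Slc40a1 and Tfr2 were low. Slc40a1 ran from 3.46 over 5.91 to 9.67 and from 3.79 over 5.01 to 7.48 (-0.14 ± 0.11), and Tfr2 from 1.48 over 4.12 to 5.83 and from 3.1 over 4.27 to 6.31 (0.16 ± 0.14). Taken as 2 SE, the SCN intervals reach from -0.06 to 0.14 for Ftl1 and from -0.11 to 0.43 for Tfr2. At single times none of the 36 tests passed, where 0.0444% of genes passed at CT04, 0.00635% at CT00, CT16 and CT20 and none at the others, and 2 had an unadjusted p under 0.05: Slc40a1 at CT16 (-0.61 ± 0.26, unadjusted p = 0.0239) and Trf at CT20 (-0.36 ± 0.16, unadjusted p = 0.0347). Oligodendrocyte markers summed to 1506 to 2550.3 CPM on control and 1279 to 2580 on MCD, and the 5 erythroid genes present to 76.6 to 1518 and 43.6 to 395. None of these markers passed the diet test.

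The diet effect differed between the tissues for 4 of the 6 shared genes, where 34.7% of 14491 shared genes did. The SCN effect minus the liver effect was 0.94 ± 0.13 log2 for Tfr2 (adjusted p = 1.06e-07), -0.60 ± 0.08 for Ftl1 (adjusted p = 1.77e-08), -0.55 ± 0.12 for Slc40a1 (adjusted p = 1.64e-04) and -0.38 ± 0.07 for Fth1 (adjusted p = 5.82e-05). Tfrc (adjusted p = 0.403) and Trf (adjusted p = 0.111) did not pass. Trf did with library totals (-0.33, adjusted p = 0.0013) and without replicate 3 (-0.30, adjusted p = 0.0252), and came to -0.0038 without replicate 2. Liver and brain came from mice of the same cohort, and libraries of the same animal could not be paired from the labels.

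No SCN rhythm passed on either diet (15.1% and 16.1% of genes did), with edgeR. Ftl1 was nearest on both, with a span of 0.31 log2 on control (unadjusted p = 0.0128, adjusted p = 0.0714) and 0.30 on MCD (unadjusted p = 0.0155, adjusted p = 0.0773), the 1 gene with an unadjusted p under 0.05. DESeq2 called it on control (adjusted p = 0.0483), and limma-voom called none. A difference of rhythm between diets passed for none (0.0127% of genes), and none had an unadjusted p under 0.05. Tfrc passed on control without the CT20 female (79.6 CPM beside 41.3 and 43.8), with an adjusted p of 0.00802.

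Both ferritin chains were higher in females in SCN (2 of 6, against 9.89% of genes). Fth1 stood at 1067 over 1303 to 1520.2 CPM in control males and 1326 over 1530.2 to 1614 in control females, and at 1125 over 1340.1 to 1577 and 1301 over 1649 to 2007 on MCD. The ranges overlapped on both diets, and the difference was 0.27 ± 0.06 log2 (adjusted p = 0.00603). Ftl1 differed by 0.22 ± 0.05 (adjusted p = 0.00764). Without replicate 1, which leaves 1 male a group but both males in control CT08, neither passed (adjusted p = 0.21 and 0.216). In liver the same genes differed by 0.07 and 0.04 without passing when averaged over diets, though Fth1 passed on control as given above, and the sexes' gap was not tested between tissues. No gene passed a test of sex by diet in SCN, where none of 15759 genes did.

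**Figure D5:**
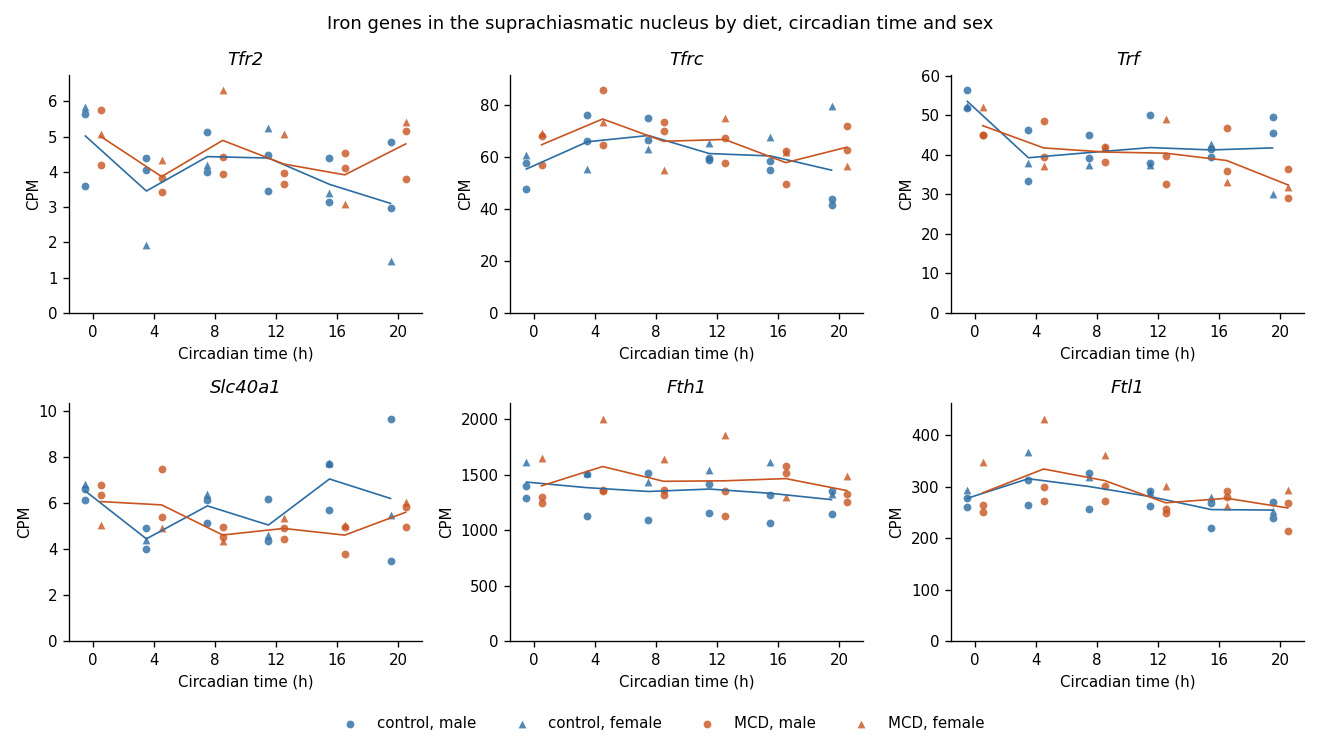
SCN levels in CPM (y axis) against circadian time in hours for the 6 genes of that table. Points are libraries, circles male and triangles female, and lines join group means of 3 libraries. Over all times the diets overlap for every gene, with Fth1 between 1067 and 2007. For Slc40a1 the 3 MCD libraries lie below the 3 controls at CT08 and CT16. Neither of these times passed the diet test, and the share of all genes with such gaps was not counted.

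Other genes of iron handling were taken from 5 lists, whose counts depend on the scaling. Under library totals the list of hepcidin control had 18 genes higher and 0 lower, transport 11 and 0, sensing and storage 6 and 5, heme 15 and 2, and iron-sulfur clusters 11 and 0, where 10633 of all 20249 genes were higher and 1540 lower. The counts that follow are under TMM, where 25.3% of all genes rose and 21.2% fell, and each list is to be read against those shares. Of 24 genes that control hepcidin, 10 rose and 4 fell in liver, with a median change of 0.01 against 0.02 for all genes. Id1, a direct target of BMP signalling, rose from 7.96 ± 4.53 to 24.6 ± 12.8 CPM (mean ± SD, n = 18). The changes were 1.66 ± 0.20 log2 for Id1, 1.17 ± 0.14 for Atoh8, 0.70 ± 0.15 for Smad7 and 0.50 ± 0.19 for Inhbb (adjusted p = 0.0315). Atoh8 and the inhibitor Smad7 are also induced by BMP signals, and Inhbb encodes a subunit of activin B. The Inhbb call was lost without any of 7 single libraries, without replicate 1 (0.40, adjusted p = 0.243) or 2 (0.39, adjusted p = 0.196), with a term for library kind (0.41, adjusted p = 0.0633) and within the low mt-Nd6 kind (0.15, adjusted p = 0.752). Bmp6, the iron-responsive ligand, rose by 0.37 ± 0.09 and Hfe by 0.42 ± 0.04, while Tmprss6, a protease that restrains hepcidin, fell by 0.24 ± 0.06 and Hjv differed by -0.07 ± 0.05 without passing (adjusted p = 0.246). Under library totals Tmprss6 differed by 0.01 without passing and Hjv rose by 0.18, so their direction rests on the scaling.

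Of 12 genes of iron sensing and storage, 2 rose and 5 fell. The iron regulatory proteins Aco1 and Ireb2 fell by 0.47 ± 0.05 and 0.46 ± 0.07 log2, and Fbxl5, which marks Ireb2 for degradation, rose by 0.24 ± 0.04. Timd2 and Scara5, receptors that take up ferritin, fell by 0.65 ± 0.09 and 1.56 ± 0.40, and Ncoa4, the receptor for ferritin breakdown, differed by -0.05 ± 0.04 (adjusted p = 0.307), but rose by 0.21 under library totals. The Scara5 call was lost without replicate 2 (-0.93, adjusted p = 0.105) and within the low mt-Nd6 kind (-1.02, adjusted p = 0.228). It was also lost with the replicate block (-0.91), which leaves out control CT08 a and b as well. Aco1 and Ireb2 also fell under that scaling, by 0.21 each.

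Of 16 transport genes, 6 rose and 3 fell. Of those with a mean of at least 1 CPM, the largest changes were those of Lcn2 (2.49 ± 0.52), which binds bacterial iron carriers, Slc11a1 (0.75 ± 0.16), a metal pump of macrophage vesicles, and the metalloreductases Steap2 (0.41 ± 0.10) and Steap4 (0.39 ± 0.09). Within the low mt-Nd6 kind Lcn2 (1.52), Steap2 (0.29) and Steap4 (0.16) did not pass, and in the high kind they were 4.49, 0.42 and 0.83. Slc11a1 did not pass in the low kind either (0.59, adjusted p = 0.0745). Lcn2 was 1.65 without replicate 2, and Steap2 did not pass without replicate 1 (adjusted p = 0.055). Of 20 heme genes, 8 rose and 4 fell: Flvcr2 rose by 1.79 ± 0.23, Hmox1, which breaks heme down, by 1.00 ± 0.17, and Hpx and Hp, which bind heme and hemoglobin in plasma, by 0.73 ± 0.09 and 0.66 ± 0.07. Hmox1 did not pass within the low mt-Nd6 kind (0.78, adjusted p = 0.0647). Of 18 genes of iron-sulfur cluster assembly, 4 rose and 9 fell, led by Nubp1 (0.39 ± 0.04), Bola3 (-0.35 ± 0.05), Ciao1 (-0.31 ± 0.03) and Mms19 (-0.31 ± 0.05). The falls of Bola3, Ciao1 and Mms19 did not pass under library totals (-0.10, -0.05 and -0.04). In SCN none of the 22, 13, 10, 18 and 18 genes tested of the 5 lists passed.

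Across the 36 liver libraries, the genes most like each of the 8 were found by Pearson's r of log2 CPM over 13839 genes, a description in which the libraries share diet, sex and scaling. Hamp was most like Id1 (r = 0.81), then Sall1 and Ces1b. Hamp2 was most like Slc22a26 (0.92), Ecm1 and Cyp17a1, Tfr2 like Ugt2a3 (0.98), C8g and Ndufa6, and Slc40a1 like Clec1b (0.90), a gene of Kupffer cells, Tmc6 and Nqo1. Fth1 was most like Ftl1 (0.94), and Ftl1 like its copies Ftl1-ps1 (0.99) and Ftl2-ps (0.99). Tfrc (Ero1a, 0.74) and Trf (Abca9, 0.75) had looser company. In SCN, Fth1 was most like Csrp1 (0.91) and Ndrg2 (0.91), Ftl1 like Rpl3 (0.94), and Tfrc like Pou6f1 (0.79).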

How the data were processed

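Poly(A) RNA was sequenced from 72 libraries, 36 of liver and 36 of SCN, in 24 groups of 3. The authors deposited raw read counts per gene, 1 table per tissue. The submitters' processing notes name Trimmomatic, HISAT2, StringTie, DESeq2 and the build GRCm39, without versions or roles. Reference positions and sequences are from GENCODE M21 (GRCm38) and RefSeq (GRCm38.p6) and were joined by symbol only. RefSeq windows were used for the hepcidin genes.

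Library totals ran from 52.6 to 86.7 M counts in liver and from 23.3 to 79.8 M in SCN, so counting error is small beside the spread of replicates for all but the lowest genes. Counts were tested with edgeR 4.0.16 in R 4.3.3 (filterByExpr with a minimum count of 10, TMM, robust quasi-likelihood F test, 12 groups of diet and time plus sex), with Benjamini-Hochberg adjustment over all genes of the fit and a threshold of 0.05. The SE is the log2 change over the square root of F. Rhythm was a cosine and sine of 24 h tested over the group terms, with spans, SE and peak times from least squares on log2 CPM, and sex by diet an interaction. The scripts were tested on simulated counts.

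Alternatives were DESeq2 1.42.0, limma-voom 3.58.1, library totals, no filter, replicates or single libraries left out, the replicate number as a block, a term for or a split by the kind of liver library, and leaving out control CT08 a. Control CT08 a and b carry no replicate number. They stayed in when replicate 1 or 2 was left out, and the block fit left both out, keeping only the female of that group. Effects within a sex or diet were added after the data were seen. Numbers shared by groups did not pair libraries: deviations of same-numbered libraries correlated at -0.21 to 0.29 in liver and -0.17 to 0.25 in SCN. The labels do not say whether libraries of a group are separate animals beyond sex and number, so p-values measure the spread between these libraries. Exon-bin counts, deposited by the authors as 1 file per library, were used only for the hepcidin genes in SCN, and 2 liver files were not used.

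The members and lists were chosen with earlier results of these data known. All 8 genes are named throughout. From each other list the text names the 4 called genes with the largest diet change and a mean of at least 1 CPM, and the direct regulators Bmp6, Id1, Smad7, Tmprss6, Hfe, Hjv, Aco1, Ireb2, Fbxl5 and Ncoa4. Likeness is Pearson's r of log2 CPM with a prior count of 2.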

Additional observations from a re-analysis of the deposited data

Results flagged for a closer look

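The diet effect on liver Hamp2 differed between the sexes by -2.46 log2, female minus male, by the test of that difference. Tests of the difference between tissues, SCN minus liver, gave a diet effect 0.94 higher for Tfr2 and differences of -0.60 for Ftl1, -0.38 for Fth1 and -0.55 for Slc40a1.

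The SCN gene table has no row for the hepcidin genes, but the SCN exon-bin files, which no comparison above used, hold counts on both. For Hamp the highest file held 55 counts (control CT12 replicate 2), the 36 files together 195, and 21 files were at 0. For Hamp2 the highest held 21 (MCD CT16 replicate 2), the files together 77, and 26 were at 0. No control sample lacks SCN tissue, so these were read against the 3 counts that a count of 0 allows. Alb, the most abundant hepatocyte marker present, ran from 0.587 over 3.35 to 26.3 CPM in the same libraries, and its part in these counts was not tested.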

How the results depend on the processing

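The diet test passed for 5 to 7 of the 8 liver genes under each alternative except within the high mt-Nd6 kind (4), and for no SCN gene under any. Counts of genes passing moved as follows; causes were not tested. Liver rhythm on control (2) came to 1 with limma-voom, 0 with library totals, 1 with no filter, 1 without control CT08 a (Ftl1, with both earlier calls lost), 0 to 1 with a replicate number left out and 0 to 2 leaving out single libraries. Liver rhythm on MCD (2) came to 3 with DESeq2, 0 to 1 with a number left out and 2 to 3 leaving out single libraries. Liver rhythm difference (0) came to 1 with DESeq2, 1 without replicate 3, 1 without control CT08 a and 0 to 1 leaving out single libraries. Sex by diet (1) came to 2 with DESeq2, 2 with a term for library kind and 2 without control CT08 a (Fth1 added), 0 without replicate 2 and 1 to 2 leaving out single libraries. Single-time calls in liver (22) came to 3, 4 and 15 without replicates 1, 2 and 3, 28 with library totals, 24 with DESeq2, 21 with no filter, 20 with a term for library kind and 15 to 22 leaving out single libraries. The difference between tissues (4) came to 5 with library totals and without replicate 3 (Trf added). The liver sex difference (3) came to 2 with library totals, without replicates 1 and 2 and in 5 of the 36 fits that each left out 1 library (Slc40a1 lost). On control diet (4) it came to 5 with DESeq2 and without control CT08 a, 3 with library totals and 1 and 2 without replicates 1 and 2. The diet effect in males (7) came to 8 with library totals, 6 with a term for library kind and 6 and 5 without replicates 1 and 2, and in females (5) to 6, 4, 4 and 4. SCN rhythm on control (0) came to 1 with DESeq2, 1 without replicate 3 and 0 to 1 leaving out single libraries, SCN rhythm on MCD (0) to 1 without replicate 1 and 0 to 1 leaving out single libraries, and the SCN sex difference (2) to 0 without replicate 1.

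With the replicate number as a block, liver rhythm on control came to 0 genes in place of 2, and the liver diet effect in males to 6 in place of 7 (Tfrc lost). No other count of calls over the 8 genes changed. The block gave a Hamp2 sex-by-diet difference of -2.46. The block fit also left out control CT08 a and b, which carry no number, so that group kept only its female. The parts of the block and of the missing libraries in these changes were not tested.

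Of the values of the 8 genes that changed sign, none was past the threshold before or after; the listed genes Tmprss6, Hjv and Ncoa4, which turned under library totals, are given with their lists. With library totals: liver sex, Tfr2 0.0065; liver diet in females, Trf 0.20 and Tfrc 0.13; liver sex on MCD, Tfr2 0.016, Ftl1 0.023 and Trf 0.033. With limma-voom: liver sex on MCD, Trf 0.00060; SCN sex, Slc40a1 0.027 and Tfr2 0.13. Within the high mt-Nd6 kind: liver diet, Hamp2 0.46. Without replicate 2: liver sex on MCD, Tfr2 0.013, Ftl1 0.00018 and Trf 0.044. Without replicate 1 these values kept their sign (-0.062, -0.035 and -0.042). With replicate numbers or single libraries left out, the ranges crossed 0 for the liver diet effect of Hamp2 (-0.98 to 0.40), the liver sex difference of Tfrc (-0.0087 to 0.22), the liver sex-by-diet difference of Tfr2 (-0.0087 to 0.089), the SCN diet effect of Ftl1 (-0.013 to 0.064), the SCN sex differences of Slc40a1 (-0.078 to 0.076) and Tfr2 (-0.089 to 0.072) and the SCN sex-by-diet difference of Slc40a1 (-0.23 to 0.029). Without replicate 3 no female remains, so sex has no value there, and the comparison between tissues was not run with single libraries left out.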
